A study of Homo sapiens with 12 samples.

Results

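The transcriptional distance between an activated and a blocked androgen receptor was measured in VCaP, an established human prostate cancer cell line that carries the TMPRSS2-ERG fusion. Agonist and antagonist were set directly against each other: 3 arrays of cells given 0.1 nM dihydrotestosterone (DHT), against 3 arrays of cells given 10 µM enzalutamide with no other agent. These are 6 of the 12 Illumina BeadChip arrays of the study. All cells were kept in complete medium for 24 h under treatment, and each group is a biological triplicate of the same line. Complete medium can itself hold steroids, so the DMSO vehicle cells (3 arrays) cannot be taken as androgen-free. Vehicle was placed between the ends of the range only to read where it lay, with no test against it. The remaining 3 arrays, enzalutamide with dexamethasone, entered only the shared estimate of the spread.

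The androgen receptor is a nuclear receptor that, once bound by DHT, enters the nucleus, binds DNA beside FOXA1 and other partners, and raises genes of prostate secretion, lipid synthesis and protein folding while lowering others. Enzalutamide competes for the same ligand pocket and keeps the receptor from being activated. Prostate luminal cells are secretory, and several of the best known receptor targets, among them the kallikreins KLK3 (prostate specific antigen) and KLK2, encode secreted or membrane proteins.

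A probe was used when its detection p was under 0.05 on at least 3 of the 12 arrays, and each gene was represented by its brightest such probe, which gave 11414 genes. Levels are log2 normalized intensities, differences are DHT minus enzalutamide on that scale, and a gene is called at an adjusted p under 0.05 in limma. Mean raw intensity ran from 294.8 to 332.2 on the DHT arrays and from 270.7 to 340.4 on the enzalutamide arrays, and vehicle replicate 3 was the dimmest of all, at 198.7. Of the luminal markers with a probe, 8 of 9 were detected on all 6 arrays, the exception being KLK3 on the enzalutamide arrays. No basal marker was detected on all 6 and 3 of 4 were on none. Of 8 stromal markers ACTA2 alone was detected on all 6, and of 7 immune markers CD14 and CD68. Of 7 neuroendocrine markers, CHGA, CHGB, SCG2 and INSM1 were detected on all 6 and 2 were on none. Of 4 endothelial markers 0 were detected on all 6 and 2 were on none, and VWF was detected on 3 DHT arrays and 0 enzalutamide arrays. The 3 probes of NR3C1, the glucocorticoid receptor, were detected on 0 of 12 arrays.

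The agonist and antagonist ends of the range differed widely, and about as many genes lay above as below. Of the 11414 genes, 3546 were called (31.1%), 1765 higher with DHT (15.5%) and 1781 lower (15.6%). A difference of at least 2-fold was reached by 200 called genes that were higher with DHT (1.75%) and 186 that were lower (1.63%). At least 4-fold was reached by 11 and 19. The median difference was 0.50 over the genes called higher and -0.49 over those called lower, against -0.002 over all genes. The 3 DHT values and the 3 enzalutamide values did not overlap in 5151 genes (45.1%). Of the 1054 called genes with a second usable probe, 917 (87.0%) had the same sign on it, and 7 had a second probe called the other way, none of them named here. Correlations between arrays over all genes were 0.992 to 0.994 within DHT, 0.991 to 0.993 within enzalutamide and 0.972 to 0.975 between them.

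**Figure D1:**
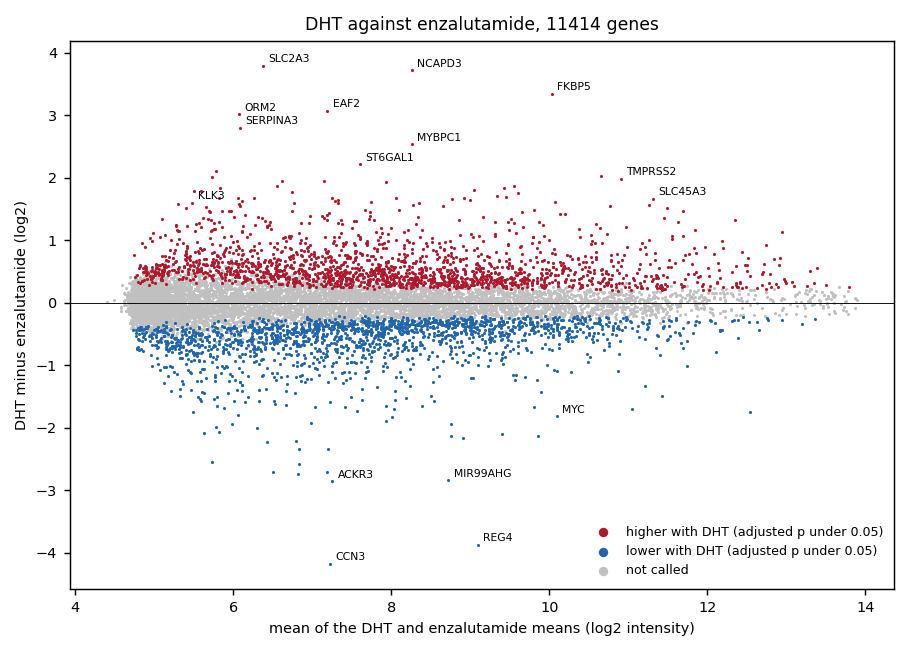
The plot gives each of the 11414 genes by the mean of its DHT and enzalutamide levels (x axis, log2 intensity) and by DHT minus enzalutamide (y axis, log2). Points in red are the 1765 genes called higher with DHT, points in blue the 1781 called lower and grey points the rest. SLC2A3, NCAPD3 and FKBP5 stand highest and CCN3 and REG4 lowest.

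The genes with the largest differences in favour of DHT were a glucose transporter, a condensin subunit, a receptor co-chaperone and a set of secreted and acute-phase proteins. SLC2A3, the glucose transporter GLUT3, had 8.21, 8.37 and 8.26 on the DHT arrays, against 4.60, 4.49 and 4.35 on the enzalutamide arrays, where its probe was not above background, and vehicle at 6.34, 6.15 and 6.06. It was therefore at least 9.87-fold higher with DHT (adjusted p = 1.6e-09), a bound set against the lowest signal that counted as detected on each enzalutamide array. NCAPD3, a subunit of condensin II, had 10.00, 10.13 and 10.25 with DHT, against 6.32, 6.34 and 6.53 with enzalutamide, and its vehicle arrays lay at 6.85, 7.28 and 6.90, near the enzalutamide end. The difference was 3.73 ± 0.12 (SE), the only one called among the 7 condensin genes tested.

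FKBP5, a co-chaperone that sits in the steroid receptor complex with HSP90, had 11.60, 11.77 and 11.74 with DHT, against 8.32, 8.47 and 8.29 with enzalutamide (difference 3.34 ± 0.09, adjusted p = 5.8e-10). EAF2, a factor of transcription elongation known as an androgen-regulated growth inhibitor, had 8.80, 8.57 and 8.80 with DHT, against 5.62, 5.82 and 5.52 with enzalutamide (3.07 ± 0.11). Vehicle lay 29% and 36% of the way from enzalutamide to DHT for FKBP5 and EAF2. Among acute-phase proteins, ORM2, an orosomucoid, was at least 6.09-fold higher and SERPINA3, an inhibitor of chymotrypsin-like proteases, at least 5.70-fold higher with DHT, both being below background on all 3 enzalutamide arrays. The probe of ORM2 may also bind its close copy ORM1. MYBPC1, a myosin-binding protein (2.54 ± 0.13), ST6GAL1, a sialyltransferase (2.21 ± 0.14), and the endothelial lipase gene LIPG (2.11 ± 0.17) followed.

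The 20 largest rises also held 2 genes of retinoid handling, the retinaldehyde dehydrogenase ALDH1A1 (2.03 ± 0.11) and the retinol dehydrogenase RDH10 (1.80 ± 0.10). Genes of the TGF-beta and BMP family in the same 20 were the receptor BMPR1B (1.93 ± 0.09), the BMP antagonist NBL1 (1.86 ± 0.08) and the ligand GDF11 (1.84 ± 0.08). Their vehicle levels differed in place: NBL1 and RDH10 lay at or just past the enzalutamide mean (-5% and -11% of the way to DHT), whereas GDF11 lay at 68%. EMP1, an epithelial membrane protein, differed by 1.96 ± 0.22, and its vehicle values of 6.11, 6.26 and 5.12 show how far the dim vehicle replicate 3 can depart from the others.

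Several of the largest differences in the opposite direction were in secreted or cell-surface genes. CCN3, a matricellular protein also known as NOV, had 5.28, 5.23 and 4.88 with DHT, against 9.29, 9.32 and 9.32 with enzalutamide, with vehicle at 7.29, 7.45 and 7.52. The difference of -4.18 ± 0.11 (adjusted p = 5.8e-10) went with vehicle near the middle, at 45% of the way. REG4, a secreted C-type lectin, had 7.28, 7.07 and 7.14 with DHT, against 11.02, 10.95 and 11.13 with enzalutamide (-3.87 ± 0.10), and vehicle, at 10.30, 10.54 and 10.58, stayed close to enzalutamide.

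Next came ACKR3, a scavenging receptor of the chemokine CXCL12 (-2.86 ± 0.13), the host gene of a microRNA cluster MIR99AHG (-2.84 ± 0.11), and OPRK1, the kappa opioid receptor, with 5.50, 5.52 and 5.34 on the DHT arrays, against 8.18, 8.20 and 8.20 on the enzalutamide arrays. SLC3A1, a subunit of a cystine transporter, and MATN2, a matrix protein, differed by -2.71 ± 0.13 and -2.70 ± 0.10. DDC, the decarboxylase that makes dopamine and serotonin, was below background on all 3 DHT arrays (4.55, 4.40 and 4.44, against 7.10, 7.01 and 6.91 with enzalutamide) and was at least 4.11-fold lower with DHT. CEACAM6, a cell adhesion glycoprotein, was also below background with DHT and at least 3.53-fold lower.

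FOLH1, which encodes prostate specific membrane antigen, had 8.78, 9.02 and 8.55 with DHT, against 11.01, 11.02 and 10.73 with enzalutamide (-2.13 ± 0.15, adjusted p = 7.3e-07). NAALAD2, a related glutamate carboxypeptidase, fell by 2.58 on the same scale. TSPAN8, a tetraspanin (-2.17 ± 0.07), FABP5, a fatty acid carrier (-2.35 ± 0.12), PLA2G2A, a secreted phospholipase (-2.21 ± 0.11), FBLN2, a fibulin of the matrix (-2.13 ± 0.08), and ALB, serum albumin (-2.10 ± 0.09), were among the 20 largest falls. In each of these genes no DHT array reached the lowest enzalutamide array, as the choice of the 20 required.

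**Figure D2:**
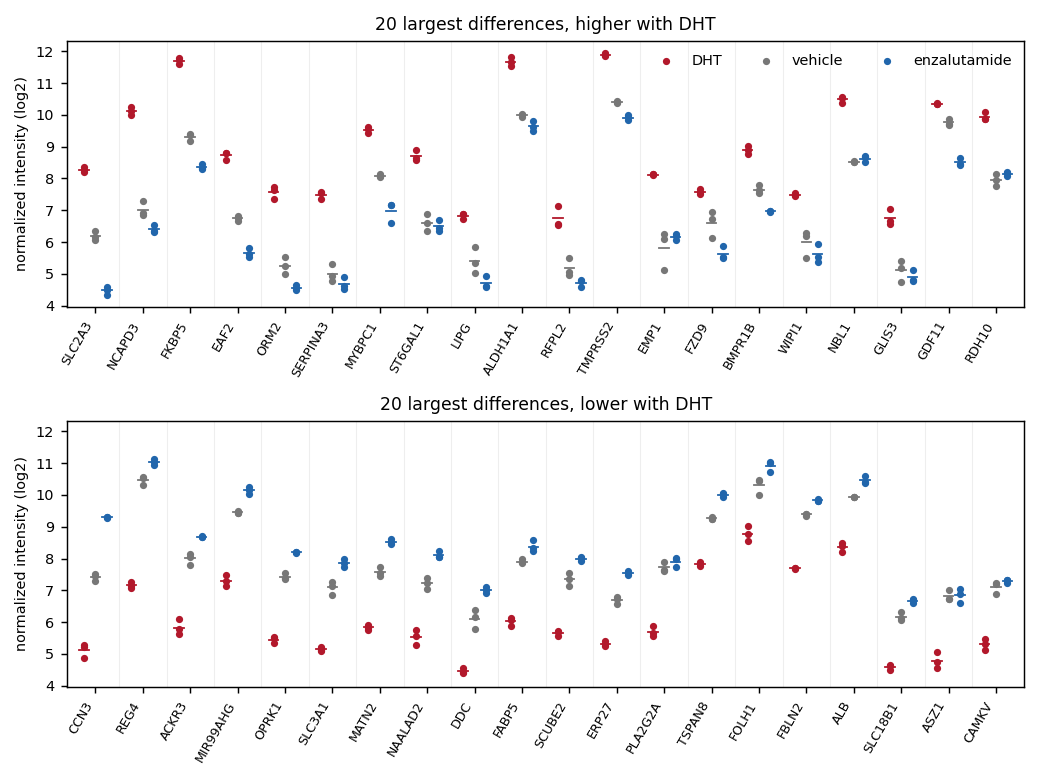
Dots are single arrays and short lines group means of the normalized intensity (y axis, log2) for the 20 genes with the largest called differences in each direction whose groups did not overlap, with DHT in red, vehicle in grey and enzalutamide in blue. Vehicle lies between the other groups in most genes and closer to enzalutamide, as in REG4, while CCN3 has it near the middle.

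Of 45 tested genes listed as androgen-induced in prostate cells, 41 were called higher with DHT and 1 lower, beside 15.5% and 15.6% of all genes, with a median difference of 1.11. TMPRSS2, a membrane serine protease, had 11.95, 11.84 and 11.90 with DHT, against 9.84, 9.99 and 9.92 with enzalutamide (1.98 ± 0.08). SLC45A3, the prostein gene, had 12.14, 12.16 and 12.14, against 10.58, 10.47 and 10.39 (1.67 ± 0.08). KLK2 had 12.46, 12.38 and 12.45, against 11.23, 11.28 and 11.28 (1.17 ± 0.07), and its vehicle mean stood at 50% of the way.

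KLK3 was detected on all 3 DHT arrays, at 6.23, 6.36 and 6.26, and on none of the enzalutamide arrays, at 4.78, 4.56 and 4.71. It was at least 2.47-fold higher with DHT (adjusted p = 9.5e-07). KLK3 and KLK2 are close copies, and cross-binding of their probes was not tested. ERG, the ETS factor that the fusion places under the TMPRSS2 promoter, had 6.91, 6.94 and 6.92 with DHT, against 5.44, 5.18 and 5.28 with enzalutamide (1.62 ± 0.10), with vehicle at 6.07, 5.87 and 6.21. The cold-sensing channel TRPM8 differed by 1.75 ± 0.09.

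The androgen-induced genes that did not pass were TSC22D1 (-0.13 ± 0.09), MED28 (-0.01 ± 0.08) and the keratin KRT8 (0.25 ± 0.11), and the member called lower was the prostaglandin receptor PTGER4 (-0.45 ± 0.09). These 4 were named after their values were seen, as were the exceptions given for the lists below. Of 19 tested genes listed as androgen-repressed, 12 were called lower, beside 15.6% of all genes, with CCN3, ACKR3, OPRK1 and MATN2 at the head. Another 4 were called higher, beside 15.5% of all genes. Those 4 were UGT2B28, a glucuronidating enzyme detected only with DHT (at least 1.48-fold), the cyclin CCND1 (0.50 ± 0.07), the growth hormone receptor GHR (0.39 ± 0.11) and the mitotic ubiquitin-conjugating enzyme UBE2C (0.31 ± 0.08). Under scaling of each array to its median, 1 gene of the list was called higher and 11 lower.

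Enzymes of androgen metabolism ran in both directions, with 3 of 11 tested called higher and 3 lower, beside 15.5% and 15.6% of all genes. UGT2B17, which glucuronidates DHT, had 5.39, 5.77 and 5.45 with DHT, against 7.19, 7.11 and 7.04 with enzalutamide (-1.58 ± 0.11). UGT2B15, its relative, was detected with enzalutamide and not with DHT (at least 1.17-fold lower with DHT). AKR1C3, which makes testosterone from androstenedione, was lower as well, at 9.20, 9.05 and 9.28 against 10.60, 10.54 and 10.69 (-1.43 ± 0.08). The UGT2B genes are close copies of each other, and their probes may not separate them fully. HSD17B6, a steroid oxidoreductase, had 6.23, 6.26 and 6.29 with DHT, against 6.33, 6.05 and 6.19 with enzalutamide, and was not called (0.07 ± 0.09), although both groups lay below all vehicle arrays (7.01, 6.86 and 6.90).

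Promoter sequence was looked up for the named genes. The androgen receptor binds a palindrome of 2 hexamers, searched here on both strands as AGAACA, 3 letters of any kind and TGTTCT, with up to 2 mismatches among its 12 fixed letters, in the RefSeq windows (GRCh38.p14) from 250 bases before to 50 after each start. Of the 51 named genes looked up, 36 had a window, and 2 of them, KLK3 and SERPINA3, held a match. The windows of these 2 genes are shown with the match in capitals, and that of KLK2 with its closest 15 letters in capitals, which have 3 mismatches and share 14 of 15 letters with those of KLK3. KLK3 lies at chr19:50854665-50854964, KLK2 at chr19:50873189-50873488 and SERPINA3 at chr14:94612141-94612440, all on the plus strand, and the capitals begin 170, 176 and 85 bases before the start.
KLK3: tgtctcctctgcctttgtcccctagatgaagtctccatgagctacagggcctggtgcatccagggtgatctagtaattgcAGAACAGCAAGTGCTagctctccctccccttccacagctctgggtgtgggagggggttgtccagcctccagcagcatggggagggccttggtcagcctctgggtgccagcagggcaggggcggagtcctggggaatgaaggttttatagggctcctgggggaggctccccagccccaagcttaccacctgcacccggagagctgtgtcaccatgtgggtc
KLK2: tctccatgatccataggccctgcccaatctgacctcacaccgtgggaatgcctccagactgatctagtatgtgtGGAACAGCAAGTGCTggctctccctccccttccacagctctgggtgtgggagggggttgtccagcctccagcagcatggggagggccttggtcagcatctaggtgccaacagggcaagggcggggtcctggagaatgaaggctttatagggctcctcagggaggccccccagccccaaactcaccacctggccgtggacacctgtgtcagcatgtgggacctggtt
SERPINA3: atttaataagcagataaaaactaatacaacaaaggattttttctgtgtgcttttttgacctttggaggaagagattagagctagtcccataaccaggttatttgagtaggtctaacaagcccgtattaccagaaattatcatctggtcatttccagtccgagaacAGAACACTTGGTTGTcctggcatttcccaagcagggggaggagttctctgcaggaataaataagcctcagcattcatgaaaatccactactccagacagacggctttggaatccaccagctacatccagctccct

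Such matches were rare in every set of genes. They were found in 1.44% of all 27305 promoter windows in the table and in 0.662% of the 9208 windows of tested genes. Among genes at least 2-fold higher with DHT the share was 1.23% (2 of 163), among those at least 2-fold lower 1.5% (2 of 133), and among genes not called 0.651%. A match is a description of letters in a short window and says nothing of binding, and sites farther from the start were not searched.

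Genes of the endoplasmic reticulum and of the early secretory pathway rose together. All 20 tested genes of protein folding and the unfolded protein response were called higher with DHT, with differences from 0.29 to 1.08 and a median of 0.77. MANF, a secreted folding factor, had 12.26, 12.15 and 12.27 with DHT, against 11.06, 11.22 and 11.17 with enzalutamide (1.07 ± 0.08, adjusted p = 1.5e-06). SDF2L1, a component of the chaperone complex, differed slightly more (1.08 ± 0.09). CRELD2, a disulfide isomerase-like protein (0.96 ± 0.08), and CREB3L2, a transcription factor cleaved at the Golgi (0.97 ± 0.07), were close behind. The chaperone HSPA5, also named after its value was seen, differed by 0.36 ± 0.07.

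Of 31 tested genes of vesicle coats, translocation and signal peptide cleavage, 27 were called higher and 1, SEC62 (-0.44 ± 0.09), lower, with a median of 0.60. SEC24D, a COPII coat protein, had 8.07, 7.93 and 8.05 with DHT, against 6.72, 6.71 and 6.65 with enzalutamide (1.32 ± 0.10). SPCS3, a signal peptidase subunit, differed by 1.35 ± 0.12 and ARF4, a vesicle GTPase, by 0.80 ± 0.08. Of 22 glycosylation genes 12 were called higher and 1 lower (GALNT1, -0.47 ± 0.11), led by ST6GAL1 and by UAP1, which makes UDP-N-acetylglucosamine (1.43 ± 0.09).

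As a share of the way from enzalutamide to DHT, the median vehicle position was 22.6% for the called folding genes and 18.7% for the called secretory genes, beside 25.5% over all called genes. With median scaling 16 of the 20 folding genes and 23 of the 31 secretory genes were called higher. With each DHT or enzalutamide array left out in turn, 18 to 19 and 23 to 26 were.

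**Figure D3:**
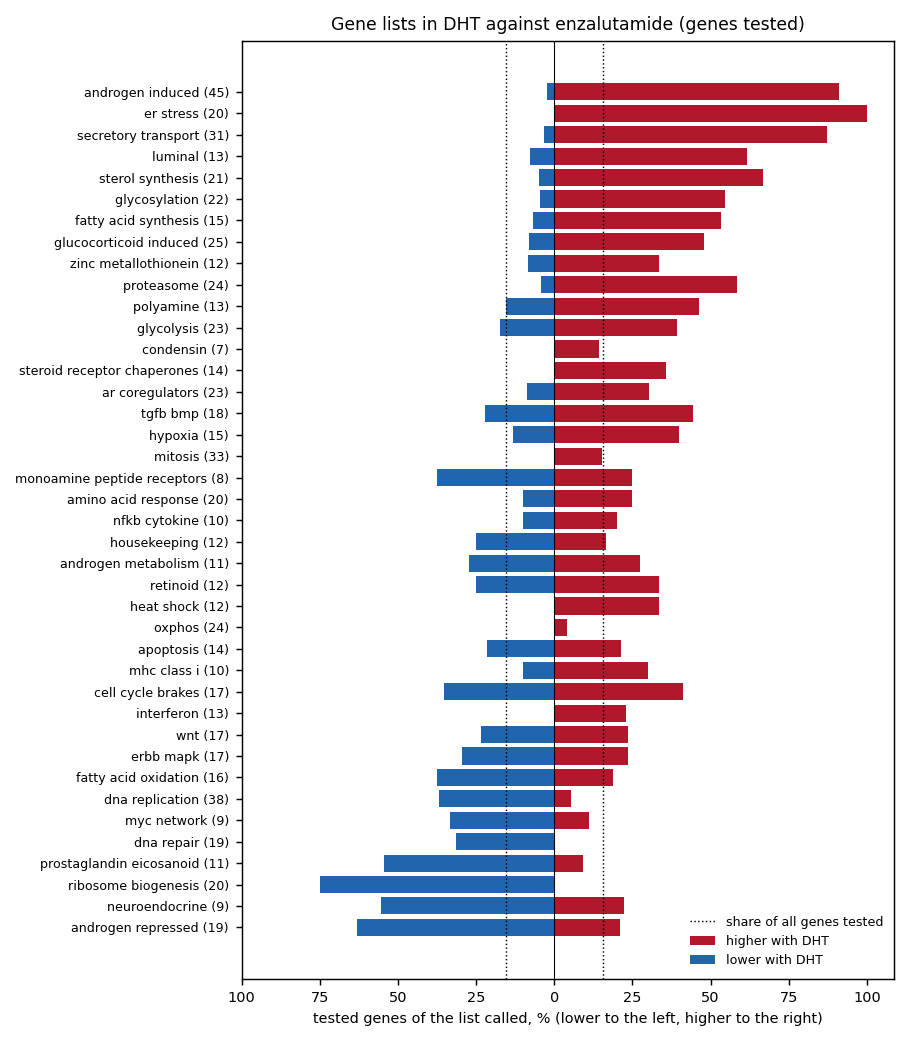
Bars give the share of the tested genes of each list (number in brackets) that were called, in percent, with genes higher with DHT to the right in red and lower to the left in blue, ordered by the median difference. Dotted lines mark the shares over all genes, 15.5% and 15.6%. The folding genes (er stress) reach 100% to the right, and ribosome biogenesis 75% to the left.

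Cholesterol and fatty acid synthesis rose in part. Of 21 sterol genes 14 were called higher and 1 lower, with a median of 0.50. INSIG1, which retains the sterol sensor in the endoplasmic reticulum, had 10.84, 10.81 and 10.90 with DHT, against 9.55, 9.40 and 9.35 with enzalutamide (1.42 ± 0.08). HMGCS1, an early enzyme of the pathway (1.20 ± 0.08), IDI1, the isopentenyl diphosphate isomerase (1.06 ± 0.09), and MSMO1, a methylsterol oxidase (0.999 ± 0.09), followed, and TM7SF2, a sterol reductase, fell (-0.82 ± 0.08). Vehicle lay farther towards DHT for these genes than for the secretory ones, at a median of 43.3% over the called members.

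Of 15 fatty acid synthesis genes 8 were called higher and 1 lower (HACD3, -0.42 ± 0.08), or 2 lower without DHT replicate 1. The fatty acid synthase FASN had 13.22, 13.12 and 13.27 with DHT, against 12.28, 12.30 and 12.27 with enzalutamide (0.92 ± 0.07), and ACLY, which supplies acetyl-CoA, differed by the same amount (0.92 ± 0.09). Fatty acid oxidation was split, with 3 of 16 genes called higher and 6 lower, the higher share being near the 15.5% of all genes. AMACR, a racemase used as a marker of prostate cancer, had 9.80, 9.81 and 9.85, against 8.07, 8.13 and 8.31 (1.65 ± 0.09), and ACADL, a long-chain dehydrogenase, differed by 1.68 ± 0.14, whereas the thiolase ACAA2 (-0.95 ± 0.10) and HADH (-0.66 ± 0.09) were lower with DHT.

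Polyamines are abundant in prostate secretion, and 6 of 13 genes of their metabolism were called higher and 2 lower. The lower share was near the 15.6% of all genes, and the higher share stood beside 15.5%. Spermine synthase, SMS, had 12.30, 12.37 and 12.18 with DHT, against 10.93, 10.94 and 11.07 with enzalutamide (1.30 ± 0.08), and ODC1, the first enzyme of synthesis, 12.09, 12.07 and 12.09 against 10.90, 11.04 and 11.09 (1.07 ± 0.08). For ODC1 vehicle lay at 9% of the way, close to enzalutamide. Of 24 oxidative phosphorylation genes 1 was called (COX6C, 0.28 ± 0.09), a call lost when DHT replicate 1 or 2 or enzalutamide replicate 1 or 2 was left out.

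MYC, a driver of growth and ribosome production, was lower with DHT, at 9.13, 9.23 and 9.21, against 11.10, 11.02 and 10.90 with enzalutamide (-1.82 ± 0.08, adjusted p = 3.1e-08). Ribosome biogenesis genes were also lower: 15 of 20 were called lower and 0 higher in limma (0 also at an unadjusted p under 0.05), with a median of -0.38. NCL, nucleolin, had 10.04, 10.04 and 9.88 with DHT, against 10.63, 10.64 and 10.53 with enzalutamide (-0.62 ± 0.08), and WDR12, NOLC1 and NOP16, all factors of the nucleolus, differed by -0.69 ± 0.12, -0.61 ± 0.11 and -0.50 ± 0.09. For 10 of the 15 called genes the vehicle mean lay beyond the enzalutamide mean, on the side away from DHT. With median scaling only 3 of the 20 were called lower, at a median of -0.32, and leaving out single arrays gave 11 to 15.

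In many DNA replication genes vehicle lay outside the range between the drugs. Of 16 called ones it lay beyond the enzalutamide mean in 13, beside 661 of all 3546 called genes. It did so in 10 of 15 called ribosome biogenesis genes and 4 of 7 called retinoid genes. In DHT minus enzalutamide 14 of 38 tested replication genes were called lower and 2 higher, beside 15.6% and 15.5% of all genes. The 2 higher were RRM2 (0.58 ± 0.19) and POLE2 (0.22 ± 0.08), and the median over the 38 was -0.17. Leaving out any one DHT or enzalutamide array gave counts of 0 or 1 higher and 10 to 14 lower. The helicase subunit MCM2 had 6.50, 6.32 and 6.26 with DHT, against 7.38, 7.40 and 7.30 with enzalutamide (-0.999 ± 0.09), but vehicle stood at 7.90, 7.77 and 7.86, above both. MCM6 (-0.71 ± 0.08), MCM4 (-0.66 ± 0.08) and the histone chaperone subunit CHAF1A, which was below background with DHT (at least 1.51-fold lower), showed the same order of group means. In RNA from whole cultures, fewer cells of a kind and less RNA per cell cannot be told apart.

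Other replication genes were not called between the drugs while both drugs lay below vehicle. GINS2, part of the replicative helicase, had 5.72, 5.76 and 6.18 with DHT and 5.71, 6.09 and 5.82 with enzalutamide, against 6.74, 6.69 and 6.84 with vehicle (DHT minus enzalutamide 0.01 ± 0.13). CDC45, a further helicase component, had 8.16, 8.26 and 8.17 with DHT and 8.13, 8.03 and 8.14 with enzalutamide, against 8.86, 8.87 and 8.90 with vehicle (0.10 ± 0.07). CDC25A, a phosphatase that starts S phase, differed by -0.13 ± 0.11, and UHRF1, which maintains DNA methylation, by -0.23 ± 0.09, with vehicle 0.85 and 0.73 above the higher of the other means.

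In 24 of the 38 replication genes all 3 vehicle arrays lay above the other 6 arrays, as they did in 250 of all 11414 genes (2.19%), and the vehicle mean was above both other means in 31 of the 38, against 24.3% of all genes. No replication gene had all vehicle arrays below the others. Of the 6 genes with vehicle farthest above both, 5 were GINS2, CDC25A, UHRF1, MCM4 and CDC45, and the other was the glutamate receptor subunit GRIN3A. Without the dim vehicle replicate 3 the gaps of GINS2, CDC25A, UHRF1, MCM4 and CDC45 were 0.83, 0.87, 0.78, 0.72 and 0.67. With median scaling 5 of the 38 genes were called lower.

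**Figure D4:**
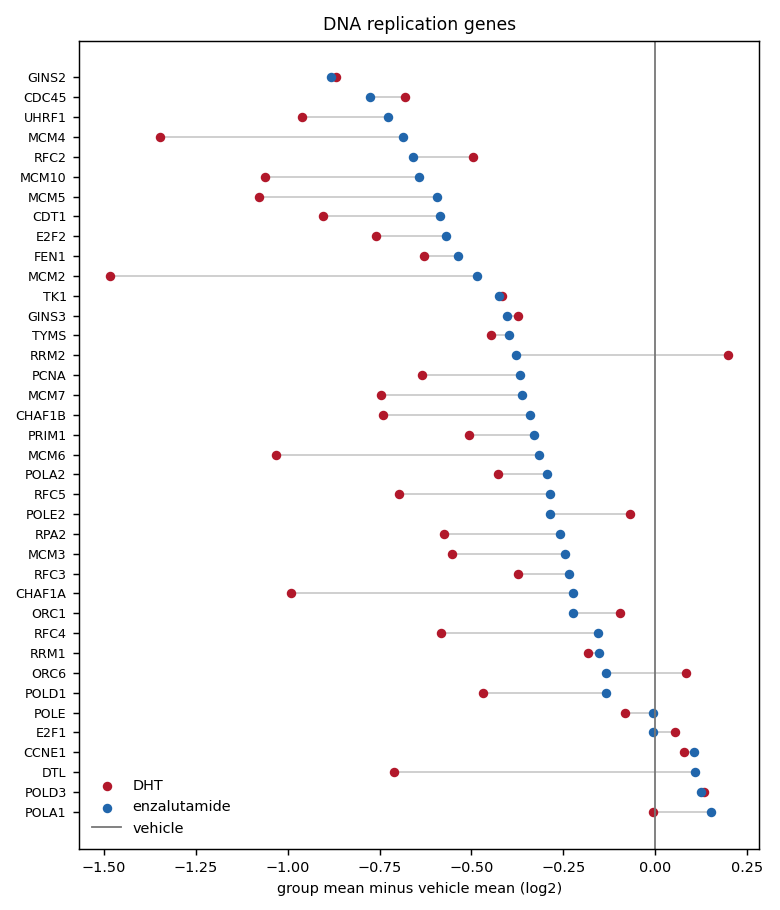
Each row is a DNA replication gene, and the x axis gives its group mean minus the vehicle mean (log2), with DHT in red, enzalutamide in blue and vehicle as the line at 0. In 31 of the 38 genes both points lie left of the line, with the red point farther left for MCM2 and MCM4 and the points together for GINS2.

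Of 33 tested mitotic genes, 5 were called higher with DHT (15.2%, close to the 15.5% over all genes) and 0 lower in limma (11 and 0 at an unadjusted p under 0.05), among them CDK1, the main mitotic kinase (0.36 ± 0.09). All vehicle arrays lay above the other 6 in 0 of the 33, beside 2.19% of all genes, and below them in 4, beside 1.90% of all genes. With median scaling 0 were called in limma (2 higher at an unadjusted p under 0.05). Without DHT replicate 1 the count was 2, and without DHT replicate 3 or enzalutamide replicate 1 or 3 it was 3. Of 19 DNA repair genes 6 were called lower (31.6%, beside 15.6% of all genes). They were led by FANCE of the Fanconi pathway (-1.13 ± 0.10, with no overlap of the groups), and BARD1, the partner of BRCA1 (-0.89 ± 0.11). The cyclin-dependent kinase inhibitor CDKN1A was higher with DHT (1.06 ± 0.10) and the atypical cyclin CCNG2 lower (-1.55 ± 0.11).

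Where vehicle fell in the range was read over the 386 called genes that differed at least 2-fold, as the distance from the enzalutamide mean in percent of the full difference. The median position was 26.5%, with the middle of the distribution from 16.5% to 37.5% (quartiles), so that vehicle lay nearer to enzalutamide than to DHT in most of these genes. Vehicle was between the ends in 356 of 386 genes (92.2%) and below 50% in 352. The median was 22.6% for the genes higher with DHT and 29.1% for those lower, and single vehicle arrays gave 25.7%, 26.3% and 24.98%. With median scaling the values were 17.1% and 38.0%. On the first principal component of the 9 arrays (52.8% of the variance) the scores were -26.86 to -26.21 for DHT and 17.86 to 18.85 for enzalutamide, with vehicle at 7.73 to 8.99.

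**Figure D5:**
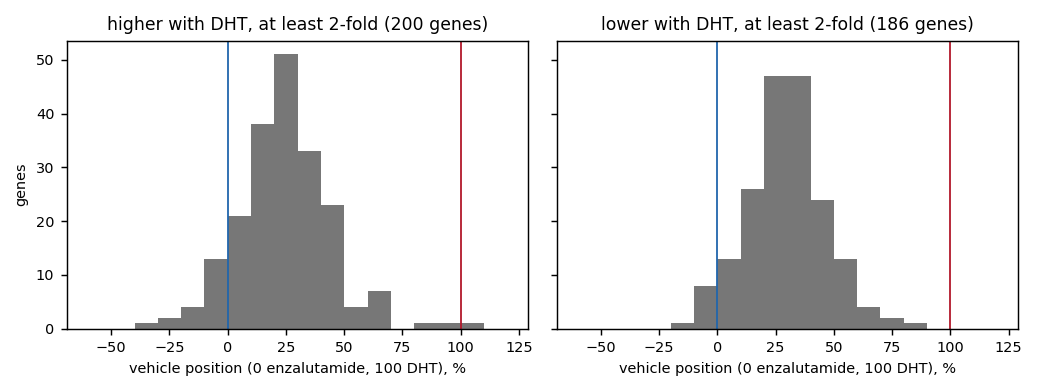
Histograms count the called genes with a difference of at least 2-fold, 200 higher with DHT on the left and 186 lower on the right, by the position of the vehicle mean (x axis, percent; the blue line at 0 is the enzalutamide mean, the red line at 100 the DHT mean). Most genes lie between 0 and 50%.

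A few genes sat at one end of this axis. MAOA, the monoamine oxidase, had 10.46, 10.54 and 10.41 with DHT, against 9.39, 9.37 and 9.43 with enzalutamide (1.07 ± 0.08), and vehicle, at 10.55, 10.50 and 10.41, coincided with DHT (102%). It was the one gene of the 386 with vehicle past the DHT mean. PKP1, a desmosome plaque protein, stood at 92%, with 7.71, 7.70 and 7.69 on the DHT arrays, 6.59, 6.68 and 6.64 on the enzalutamide arrays, and 7.67, 7.44 and 7.73 on the vehicle arrays. Among genes lower with DHT, LUM, the proteoglycan lumican (-1.64 ± 0.17), had vehicle at 75%. The prostaglandin receptor PTGER2 (at least 1.94-fold lower) was below background on all DHT arrays, so its vehicle position cannot be read. Medians over the 386 genes include such genes at their measured means.

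At the other end, vehicle lay at or near the enzalutamide mean. The cytokine receptor subunit IL20RA had 7.56, 7.60 and 7.54 with DHT, against 5.91, 6.10 and 5.86 with enzalutamide (1.61 ± 0.11), with vehicle at 5.86, 6.12 and 5.84. VPS26B, of the retromer complex (1.20 ± 0.13), MAF, a leucine zipper transcription factor (1.26 ± 0.13), and the polymerase I subunit POLR1E (-1.25 ± 0.09) behaved alike in this respect. So did ERRFI1 and LRIG1, feedback inhibitors of the EGF receptor family, which differed by 1.69 ± 0.09 and 1.30 ± 0.09 with vehicle at -4% and -6%. HPGD, which degrades prostaglandins, had 10.26, 10.22 and 10.11 with DHT, against 8.53, 8.44 and 8.47 with enzalutamide (1.72 ± 0.09). Its vehicle position was -13%, outside the range: all vehicle arrays lay below the DHT and enzalutamide arrays, with the vehicle mean 0.22 below the enzalutamide mean.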

How the data were processed

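Total RNA of 12 cultures of VCaP cells, 3 in each of 4 groups, was labelled and read on Illumina BeadChip arrays. The deposited table holds, per the file headers, 1 signal intensity and 1 detection p-value per probe and array, not normalized between arrays. A second deposited table holds the authors' processed intensities, used as an alternative, of which 29.4% to 29.5% were below 0 on each array. The submitters' processing notes name GenomeStudio, with no version. Of 47322 probes, 30112 had 1 gene symbol in the platform annotation, 8 several and 17202 none. Genes were named from that annotation, and promoter windows came from RefSeq (GRCh38.p14).

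From the raw intensities, limma 3.58.1 in R 4.3.3 computed neqc (normexp background estimated through the detection p-values, an offset of 16 and quantile normalization), and 20265 probes (42.82%) with a detection p under 0.05 on at least 3 arrays were kept. One probe per gene was taken by highest mean. Group means were fitted to all 12 arrays (lmFit, eBayes, 8 residual and 3.769 prior degrees of freedom), and p-values of DHT minus enzalutamide were adjusted by Benjamini-Hochberg over 11414 genes. The offset shrinks differences of dim probes. A gene not above background on any array of a group is given as a bound against the lowest detected signal. With such genes set at their bound, 2 of 45 list medians became 0 (basal markers, and NF-kB and cytokine genes), and no list median moved by more than 0.141.

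Named genes are the 20 largest differences each way without overlap of the groups, up to 4 called members per list by adjusted p, a set of receptor-related and reference genes, the genes with vehicle nearest either end or farthest outside the range, and the 6 largest bounds each way. Members and lists were chosen with earlier results of these data known. No list was tested as a set. The fit was tested on simulated data. Alternatives were other filters, background corrections and normalizations, other samples in the fit, each array left out, weights and blocks. The number of arrays limits the precision.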

Additional observations from a re-analysis of the deposited data

Results flagged for a closer look

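Of 5296 detected probes with no single gene symbol, which entered none of the gene comparisons, 521 were called in DHT minus enzalutamide (limma, Benjamini-Hochberg over all such probes and none of the named genes), 221 higher with DHT and 300 lower. They are not named here.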

How the results depend on the processing

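No called named gene changed direction under any alternative. Values of the uncalled HSD17B6, ACTB, GINS2, CDC25A, CNTN3, CSTPP1, PIK3CB and TBC1D9 fell on both sides of 0. Of 213 named genes 200 were called, 147 of them in every alternative, and 38 lost the call in at least 1 alternative other than the fold minimum and the fits within sets of arrays, and 2 uncalled ones, ZNF701 and UHRF1, were called in at least 1. Against 3546 called genes, scaling to the median gave 1753 (991 higher, 762 lower) and moved the median of all genes by 0.0345. A 1.5-fold minimum gave 1341 (664 higher, 677 lower). The first principal component of 19189 undetected probes divides the 6 arrays into set 1 (DHT 1 and 2, enzalutamide 1) and set 2 (DHT 3, enzalutamide 2 and 3). This division was chosen after seeing the data. Within set 1 1330 genes were called (686 higher, 644 lower) and within set 2 1401 (721 higher, 680 lower), with fewer arrays in each fit and 1 group of each set down to a single array, assumed to vary like the other groups. With the division as a block 3270 were called. The 386 genes at 2-fold or more became 120 without background correction, 199 with an offset of 50 and 237 in the authors' processed intensities. A constant of 42.45 was added to the processed intensities before log2 was taken, so that all were above 0. Each of these settings compresses dim signals by construction, and how far this accounts for the lower counts was not tested. Leaving out each array gave 2844 to 2961 called genes (1446 to 1476 higher, 1398 to 1496 lower), 380 to 399 at 2-fold or more, and vehicle positions of 26.0% to 27.1%. Deviations of same-numbered DHT and enzalutamide arrays from their group means had correlations of 0.141, 0.0454 and 0.207. DHT replicates 1 and 3 correlated best with the enzalutamide array of the same number, and DHT replicate 2 with enzalutamide replicate 1. Whether the numbers mark pairs was not tested, and a replicate block gave 3717 called genes. Without vehicle replicate 3, also added after seeing the data, 3699 were called. Probes near background limit what can be read: 355 genes were detected only with DHT and 381 only with enzalutamide, of which 83 and 82 were called.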

Other observations

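Markers of neuroendocrine cells were mixed. Of 9 tested genes 5 were called lower with DHT and 2 higher, beside 15.6% and 15.5% of all genes. SCGN, the calcium-binding protein secretagogin, had 6.66, 6.54 and 6.55 with DHT, against 8.26, 8.18 and 8.30 with enzalutamide (-1.66 ± 0.08, limma), and the chromogranins CHGA and CHGB differed by -0.62 ± 0.14 and -0.66 ± 0.11. SCG2, a secretogranin, and INSM1, a neuroendocrine transcription factor, were higher with DHT, both by 0.81 ± 0.10. CHGA, CHGB and INSM1 were named after their values were seen, as were RGS2, DUSP1 and PSMA2 below. Of 25 tested genes listed as glucocorticoid-induced, 12 were called higher with DHT and 2 lower, beside 15.5% and 15.6% of all genes. FKBP5, with the largest difference of this list (3.34), is also on the androgen-induced list. The zinc finger repressor ZBTB16 had 9.18, 9.20 and 9.06 with DHT, against 7.53, 7.53 and 7.59 with enzalutamide (1.60 ± 0.08), and the 2 lower were RGS2, a regulator of G-protein signalling (-1.18 ± 0.10), and the phosphatase DUSP1 (-0.44 ± 0.10).

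Frizzled receptors of the Wnt pathway moved apart: FZD9 (1.95 ± 0.19), FZD5 (1.67 ± 0.09) and FZD8 (1.46 ± 0.14) were higher with DHT and FZD3 (-1.06 ± 0.10) lower. Of 17 tested Wnt genes 4 were called in each direction, beside 15.5% higher and 15.6% lower over all genes. Without DHT replicate 3 or enzalutamide replicate 1 the lower ones were 2. The EGF receptor ligand TGFA was lower, at 4.69, 5.32 and 4.95 with DHT, against 6.30, 6.54 and 6.75 with enzalutamide (-1.54 ± 0.15). Of 24 proteasome subunits 14 were called higher and 1 lower (PSMA2), the largest being PSMC4 (0.56 ± 0.08), but with median scaling 2 were called and without DHT replicate 3 9 were. The BH3 protein BID was lower with DHT (-1.30 ± 0.13) and the anti-apoptotic BCL2L1 higher (0.59 ± 0.09). Of 12 reference genes 2 were called higher and 3 lower (41.7% called, beside 31.1% of all genes). ACTB was not called (0.09 ± 0.07), while PPIA was lower (-0.77 ± 0.14) and B2M higher (0.62 ± 0.10). TFRC and HPRT1 were also called lower, and GAPDH was called higher, a call lost in 11 of 22 alternatives.

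Genes with all vehicle arrays below the other 6 numbered 217 (1.90%), of which 8 had a gap of at least 0.5. ZNF701, a zinc finger gene, had 6.29, 6.57 and 6.54 with DHT and 6.18, 6.07 and 6.12 with enzalutamide, against 5.64, 5.50 and 5.46 with vehicle, and CNTN3, a neural adhesion gene, had 6.02, 6.05 and 6.13 with DHT and 5.84, 6.27 and 5.88 with enzalutamide, against 5.37, 5.47 and 5.45 with vehicle. Neither was called in DHT minus enzalutamide, although the DHT and enzalutamide values of ZNF701 did not overlap and it was called in 4 alternatives (a stricter filter, an offset of 50, a fit to 6 arrays only, and without DHT replicate 1).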
